A study of Homo sapiens with 4 samples.

Results

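The genes described here serve protein folding in the endoplasmic reticulum (ER) and the branch of the unfolded protein response that runs through XBP1. They are 35 genes of the 58174 in the deposited table, found by matching their symbols, and each symbol matched 1 gene. All 35 had an FPKM (sequenced fragments per length of gene and per library total) of at least 1 in at least 1 library, so none was lost to the filter on low values. Messenger RNA was sequenced from 2 human cancer cell lines, LM3, labelled hepatocellular carcinoma, and RBE, labelled intrahepatic cholangiocarcinoma. Each line was lipofected with si-FENDRR, an siRNA that targets the long noncoding RNA FENDRR, or with the control si-NC, and harvested after 48 h. This gives 4 libraries, 1 for each line and transfection, and all 4 groups share the transfection reagent. The stated subject of the series is the effect of FENDRR on expression in primary liver cancers.

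The ER is where membrane and secreted proteins enter the secretory pathway, fold, gain disulfide bonds and N-linked sugars, and are checked before export. When unfolded proteins build up, the ER kinase and nuclease ERN1 (IRE1 alpha) cuts XBP1 mRNA so that it encodes an active transcription factor, while ATF6 moves to the Golgi and is cut by the proteases MBTPS1 (site-1 protease) and MBTPS2. The resulting factors switch on chaperones, disulfide isomerases and the machinery of ER-associated degradation. Hepatocytes secrete most plasma proteins and depend on this system, and XBP1 is also the factor that plasma cells need to secrete antibody.

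The cut that activates XBP1 removes a short piece of its mRNA, which is shown because the values below cannot resolve it. In GENCODE release 29, on GRCh38, 1 annotated transcript of XBP1 (ENSG00000100219) lacks 26 bases that the unspliced transcript holds, at chr22:28796124-28796149, and another is annotated as lacking as many bases at chr22:28796122-28796147. The window below (chr22:28796104-28796169, minus strand) has the first of these in capitals. The annotated proteins are 261 residues long with the piece and 376 without it, through the change of reading frame. FPKM was given per gene, so spliced and unspliced XBP1 mRNA were added together.
XBP1 mRNA around the removed piece: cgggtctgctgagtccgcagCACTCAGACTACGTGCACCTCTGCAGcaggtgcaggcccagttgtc

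Promoters of ER chaperones are known to carry ER stress elements, and the printed promoter windows show which members hold one. The windows run from 250 bases before to 50 bases after each RefSeq start (GRCh38.p14), and 33 of the 35 members matched an entry by symbol; PDIA3 and SEC24D did not. Both strands were searched. ERSE was taken as CCAAT and CCACG with 9 bases between them, and was found at 8 members. Of all 27305 genes with a window 0.0916% held it, and of all 35116 promoter windows 0.0769%. The capitals below mark its 2 parts, or their reverse complement where the element lies on the opposite strand.
CALR (chr19:12938374-12938412, plus strand): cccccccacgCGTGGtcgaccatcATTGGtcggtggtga
CANX (chr5:179698768-179698806, plus strand): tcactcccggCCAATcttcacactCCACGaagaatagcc
CRELD2 (chr22:49918544-49918582, plus strand): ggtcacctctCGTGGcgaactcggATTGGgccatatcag
ERO1B (chr1:236282173-236282208, minus strand): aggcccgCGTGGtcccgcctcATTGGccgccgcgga
HSP90B1 (chr12:103930206-103930244, plus strand): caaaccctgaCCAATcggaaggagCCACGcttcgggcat
HSP90B1 (chr12:103930311-103930349, plus strand): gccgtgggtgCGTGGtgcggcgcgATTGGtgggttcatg
HSPA5 (chr9:125241381-125241419, minus strand): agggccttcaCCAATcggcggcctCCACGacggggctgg
PDIA6 (chr2:10812843-10812881, minus strand): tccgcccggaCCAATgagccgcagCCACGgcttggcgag
XBP1 (chr22:28800593-28800631, minus strand): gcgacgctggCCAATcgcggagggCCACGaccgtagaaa

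HSP90B1 holds 2 copies, 1 on each strand. ERSE-II, which is ATTGG and CCACG with 1 base between them, was found at 3 members, against 0.0696% of all genes with a window. HYOU1 holds 2 copies.
HERPUD1 (chr16:56932015-56932045, plus strand): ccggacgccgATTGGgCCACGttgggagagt
HYOU1 (chr11:119057264-119057294, minus strand): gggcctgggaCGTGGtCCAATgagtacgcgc
HYOU1 (chr11:119057370-119057400, minus strand): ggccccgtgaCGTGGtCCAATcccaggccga
SDF2L1 (chr22:21642104-21642134, plus strand): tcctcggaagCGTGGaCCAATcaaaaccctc

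UPRE, taken as TGACGTGG, was found at 4 members, against 0.927% of all genes with a window. The copy in HYOU1 overlaps its upstream ERSE-II.
HYOU1 (chr11:119057376-119057403, minus strand): gctggccccgTGACGTGGtccaatccca
SSR3 (chr3:156554149-156554176, minus strand): ctgataacagCCACGTCAgcaaggaaac
TXNDC11 (chr16:11742835-11742862, minus strand): gcggcgcggcTGACGTGGagcgtccggg
TXNDC5 (chr6:7910152-7910179, minus strand): cactggcggcTGACGTGGcgctcggcgg

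The CCACG part is shared by both ER stress elements, and its reverse complement also lies within UPRE. It was at 26 of 33 members and at 42.1% of all genes with a window. RefSeq gives 2 starts for XBP1, and the 250 bases before the downstream one held no ERSE, ERSE-II or UPRE. XBP1 had the smallest unadjusted p of the members between the transfections by limma, though it was not called. For that reason the whole 250 bases before its upstream start are printed (chr22:28800570-28800819, minus strand, ERSE in capitals).
XBP1 promoter: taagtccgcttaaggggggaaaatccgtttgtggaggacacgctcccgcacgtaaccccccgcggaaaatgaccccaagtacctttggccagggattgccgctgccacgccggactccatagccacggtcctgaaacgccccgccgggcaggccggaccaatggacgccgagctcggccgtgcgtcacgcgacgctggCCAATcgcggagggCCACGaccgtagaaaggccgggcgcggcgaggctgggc

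The other 19 members with an entry held none of ERSE, ERSE-II or UPRE in this window, which says nothing of elements elsewhere. Allowing 1 mismatch outside the spacer brought ERSE to 15 members and to 1.89% of all genes with a window.

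**Figure D1:**
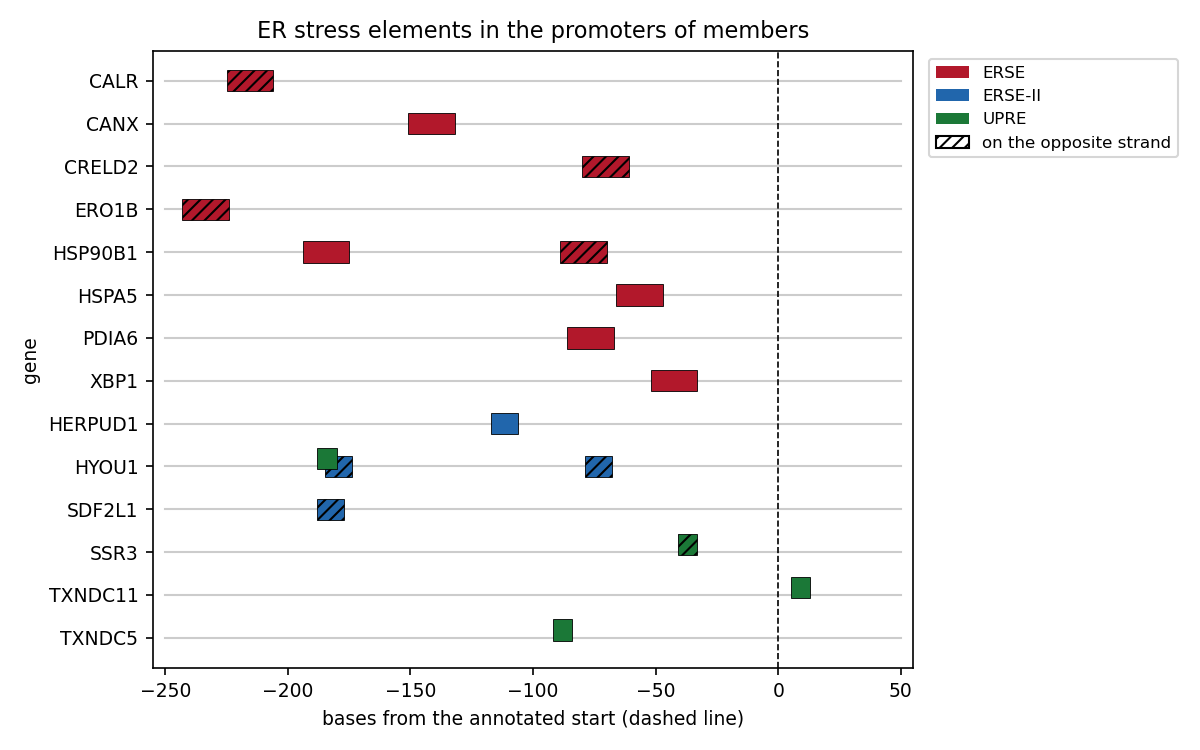
Positions of ERSE (red), ERSE-II (blue) and UPRE (green) along the promoter windows of the 14 members that hold at least 1; the x axis is the distance in bases from the annotated start and hatching marks the opposite strand. The ERSE copies of XBP1 and HSPA5 begin 52 and 66 bases before the start.

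The targeted RNA could not serve as a check, since FENDRR was listed at 0 in all 4 libraries, so groups are compared by label. Between 13437 and 13682 genes had an FPKM of at least 1 in a library. The marker genes of the labels were partly present. Of 10 hepatocyte genes 6 reached 1 FPKM in any 1 library, not the same 6 in both lines, and 4 reached it in all 4 libraries. Of 10 cholangiocyte genes 4 reached it in each LM3 library and 9 in each RBE library. The hepatocyte gene ALB was at 35.7 and 33.3 FPKM in LM3 cells and at 0.251 and 0.270 in RBE cells, while other hepatocyte genes went the other way, SERPINA1 with 0.0957 and 0.0892 FPKM in LM3 but 56.8 and 82.5 in RBE, and TTR with 6.39 and 8.41 in RBE over 0.883 and 0.810. APOA1 was at 0.0710 or less in all 4. Of 5 genes of plasma cells, a type with high XBP1, JCHAIN and TNFRSF17 were listed at 0 throughout and SDC1, which epithelial cells also express, was at 22.2 to 34.0 FPKM. Of 5 leukocyte genes 1 or 2 reached 1 FPKM in a library, with CD3E listed at 0 in all 4. The labels name no separate cultures of 1 condition, so p-values do not measure the spread between cultures. Standard errors and p-values rest on 1 residual degree of freedom per gene, from the disagreement of the 2 lines, and on a prior variance drawn from all tested genes. Read depth is not given in the files, and no counting error can be attached to a value.

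Per length, P4HB and CALR were the first and second most abundant members in every library. P4HB, the protein disulfide isomerase PDI, led with 625 FPKM (si-FENDRR) and 762 FPKM (si-NC) in LM3 and 296 and 295 FPKM in RBE. The lectin chaperone CALR followed, at 284 and 273 FPKM in LM3 and 240.2 and 237 FPKM in RBE. SEC61B, a subunit of the channel through which proteins enter the ER, was at 143 and 147 FPKM in LM3 cells and at 138 and 135 in RBE. At the other end stood the sensor ERN1, at 2.53 to 5.71 FPKM, and the oxidase ERO1B, at 0.371 to 3.14 FPKM. Levels of genes can be compared here because FPKM is scaled to gene length.

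**Figure D2:**
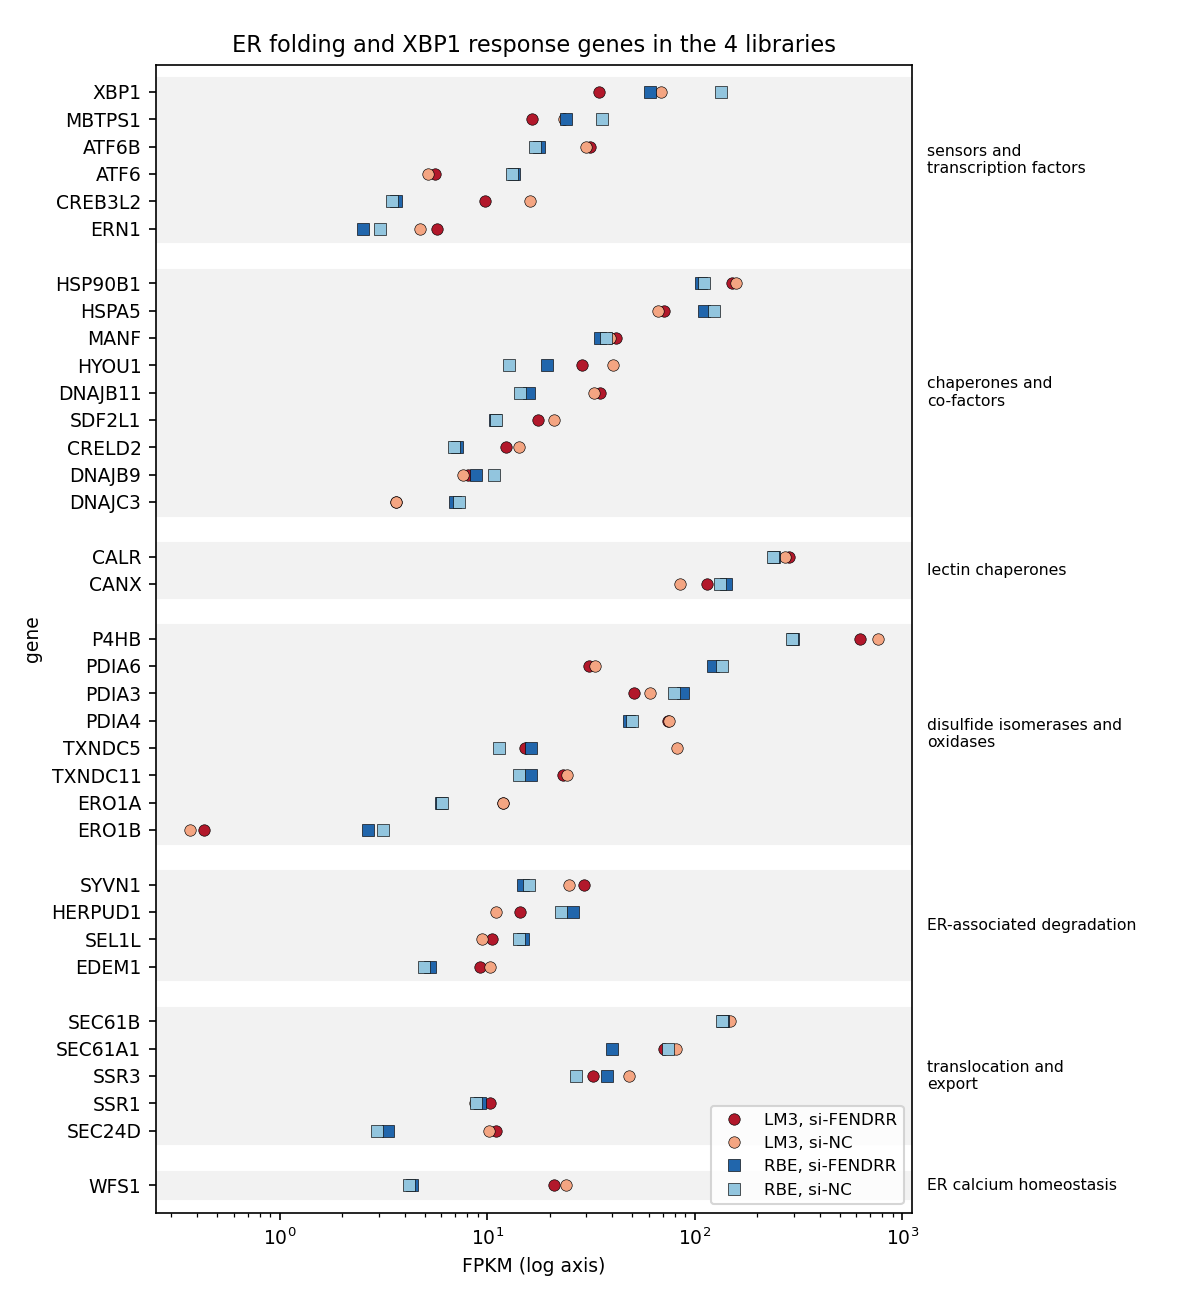
FPKM of the 35 members in each library (log axis), grouped by role; circles are LM3, squares are RBE, dark symbols si-FENDRR and light symbols si-NC. For most genes the symbols of 1 line lie together, while XBP1 and MBTPS1 have the dark symbol to the left in both lines.

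The first comparison asked whether members differed between si-FENDRR and si-NC in the same way in both lines. XBP1 stood apart from the others: in each line its si-FENDRR level was about 2-fold lower, while most chaperones, isomerases and degradation genes lay close to their si-NC level. XBP1 was at 34.4 FPKM under si-FENDRR and 68.9 FPKM under si-NC in LM3. In RBE it was at 60.8 FPKM under si-FENDRR and 133 FPKM under si-NC. The si-FENDRR library was the lower in each line, though the RBE si-FENDRR level lay close to the LM3 si-NC level. The ratio of si-FENDRR to si-NC was 0.500 in LM3 and 0.456 in RBE. In the fit over all genes the log2 difference was -1.05 ± 0.11 (SE, n = 2 lines), with an unadjusted p = 0.000779, rank 15 of 15930 tested genes, and an adjusted p = 0.783 by limma. XBP1 thus did not pass the threshold of 0.05, and its adjusted p lay between 0.574 and 1.00 over the alternatives.

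No member was called between the transfections, as no gene was: 0 of 15930 genes (0%) passed an adjusted p of 0.05 by limma, whose smallest adjusted p was 0.473. At an unadjusted p under 0.05 there were 2 members of 35, XBP1 and MBTPS1, and 657 of all tested genes (4.12%). At least 1.5-fold lower in both lines was 1 member, XBP1, and 0.358% of all genes. In both lines 9 members were lower and 9 were higher by any amount, where 21.8% of all genes were lower in the 2 lines and 26.9% higher. Over the members the differences had a median of -0.03 (LM3) and 0.03 (RBE) on the log2 scale, beside 0.00 and 0.02 over all tested genes. At least 2-fold apart were TXNDC5 in LM3, where 2.13% of all genes were, and XBP1 in RBE, where 1.75% were. Within 1.25-fold of si-NC in both lines, a bound chosen after the values were seen, were 26 of 35 members and 64.5% of all genes.

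**Figure D3:**
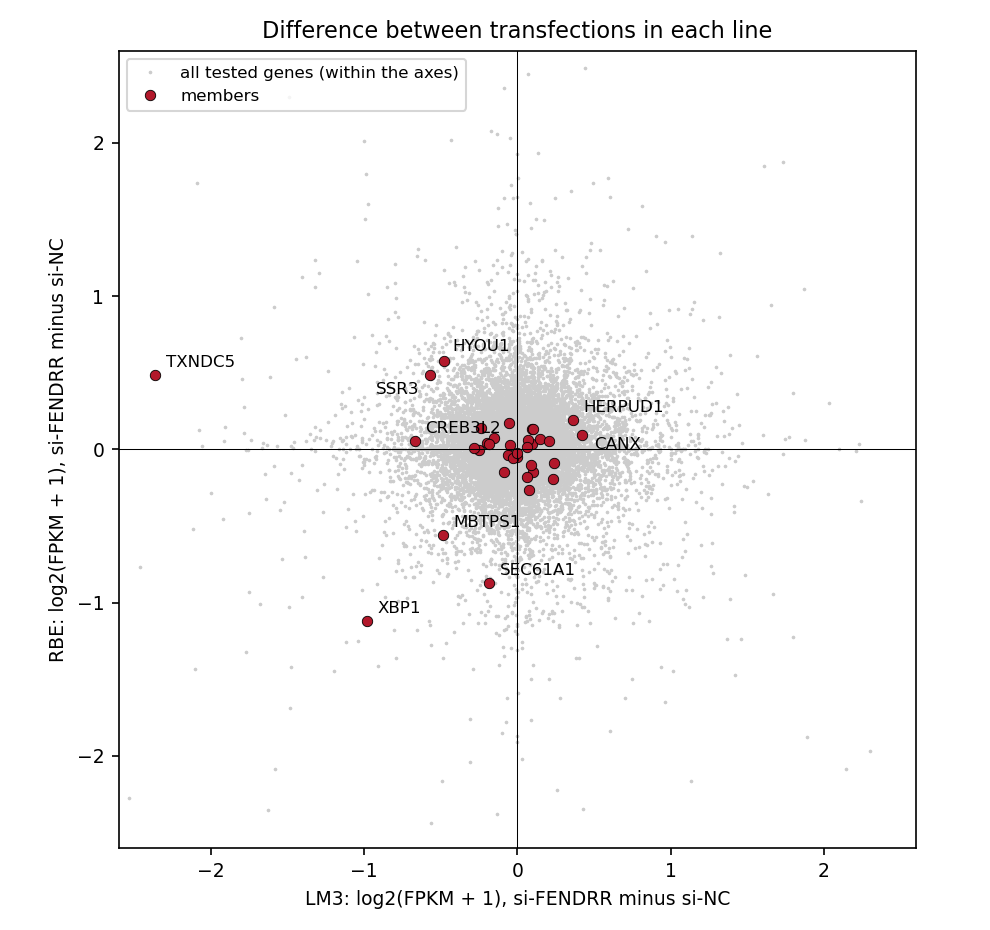
Difference of log2(FPKM + 1) between si-FENDRR and si-NC in LM3 (x axis) and RBE (y axis); red points are the 35 members and grey points all tested genes that lie within the axes. XBP1 lies at -0.98 and -1.12, MBTPS1 at -0.49 and -0.56, and most members lie near the origin.

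Among the sensors and factors, MBTPS1, the Golgi protease that starts the activation of ATF6 and of the CREB3 family, had the lower level under si-FENDRR in each line. It was at 16.4 against 23.3 FPKM in LM3 cells and at 24.0 against 35.9 FPKM in RBE. Its log2 difference was -0.52 ± 0.11 (SE, n = 2 lines), with an unadjusted p = 0.0104 and an adjusted p = 0.959 by limma. CREB3L2, a membrane-bound factor of secretory cells, was lower with si-FENDRR in LM3 alone, at 9.80 against 16.1 FPKM, and was at 3.62 against 3.46 FPKM in RBE. ERN1 was at 5.71 against 4.72 FPKM in LM3 cells and at 2.53 against 3.03 in RBE. ATF6 was at 5.62 against 5.19 FPKM in LM3 cells and at 13.4 against 13.1 in RBE, and its relative ATF6B at 31.4 against 29.9 and 17.7 against 16.9. Each of the sensors and factors other than XBP1 and MBTPS1 thus had a difference over both lines smaller than its standard error, or opposite signs in the lines.

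The main HSP70 and HSP90 of the ER and the J-domain co-chaperones lay close to si-NC within each line. HSPA5 (BiP), the HSP70 of the ER lumen, was at 71.4 FPKM under si-FENDRR and 66.3 FPKM under si-NC in LM3. In RBE, HSPA5 was at 111 and 123 FPKM. HSP90B1 (GRP94), the HSP90 of the lumen, was at 151 and 158 FPKM in LM3 cells and at 108 and 111 FPKM in RBE. DNAJB9 (ERdj4), a co-chaperone of BiP and a known target of spliced XBP1, was at 8.12 and 7.64 FPKM in LM3 cells and at 8.81 and 10.8 FPKM in RBE. DNAJB11 (ERdj3), another co-chaperone that XBP1 is known to control, was at 35.1 and 32.8 FPKM in LM3 cells and at 15.8 and 14.4 FPKM in RBE. DNAJC3 (p58IPK) was at 3.64 and 3.65 FPKM in LM3 cells and at 7.01 and 7.30 in RBE. None of these genes had a log2 difference beyond 0.27 in size in either line.

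The secreted ER factor MANF was at 41.7 and 39.1 FPKM in LM3 cells and at 34.8 and 37.4 in RBE with si-FENDRR and si-NC. SDF2L1, a partner of ERdj3, was at 17.5 and 21.02 FPKM in LM3 cells and at 10.9 and 11.0 in RBE, and CRELD2 at 12.3 and 14.3 FPKM and at 7.16 and 6.93 FPKM. HYOU1 (GRP170), the nucleotide exchange factor of BiP, lay on opposite sides of si-NC in the lines: it was at 28.6 against 40.3 FPKM in LM3 cells and at 19.4 against 12.7 FPKM in RBE. Of the 9 members of this group of chaperones and co-factors, 8 lay within 1.25-fold of si-NC in both lines and the exception was HYOU1. The lectin chaperone CANX, which holds glycoproteins while they fold, was at 114 against 85.1 FPKM in LM3 cells and at 142 against 133 in RBE, a log2 difference of 0.26 ± 0.13 (SE, n = 2 lines, adjusted p = 0.959 by limma).

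Disulfide isomerases and oxidases were near their si-NC level in both lines, apart from TXNDC5. PDIA4 was at 74.1 and 75.4 FPKM in LM3 cells and at 48.1 and 50.1 in RBE, with si-FENDRR first. PDIA6 was at 31.1 and 33.1 FPKM in LM3 cells and at 122 and 135 in RBE. PDIA3, the isomerase that works with CALR and CANX, was at 51.2 and 60.6 FPKM in LM3 cells and at 87.7 and 79.5 in RBE. PDIA3P1 and PDIA3P2, pseudogenes of PDIA3 by their symbols, were at up to 4.82 and 3.003 FPKM, so reads shared with PDIA3 are possible. ERO1A, the oxidase that recharges PDI, was at 11.9 FPKM in both LM3 libraries and at 5.96 and 6.08 in RBE. TXNDC11, an ER thioredoxin-like protein, was at 23.2 and 24.1 FPKM in LM3 cells and at 16.2 and 14.2 in RBE.

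TXNDC5, an isomerase with thioredoxin domains, had the largest difference of any member within a line, and its value depends on how reads were shared between gene models. TXNDC5 itself was at 15.1 FPKM under si-FENDRR and 82.0 FPKM under si-NC in LM3 cells, and at 16.3 and 11.4 FPKM in RBE. The readthrough model BLOC1S5-TXNDC5 shares 2658 of the 4387 exon bases of TXNDC5 on the same strand (chromosome 6, minus strand, TXNDC5 from 7881517 to 7910814). It was at 38.3 FPKM under si-FENDRR and listed at 0 under si-NC in LM3 cells, and reached 64.3 and 83.1 FPKM in RBE. The sum of both models was 53.4 and 82.0 FPKM in LM3, a ratio of 0.652, and 80.6 and 94.5 FPKM in RBE, a ratio of 0.854. The log2 difference over both lines was -0.94 ± 0.73 (SE, n = 2 lines) for TXNDC5 as listed, and -0.42 ± 0.14 for the sum, with adjusted p-values of 0.959 and 0.958 by limma. The upstream gene BLOC1S5 was at 4.27 and 4.09 FPKM in LM3 cells and at 5.95 and 7.46 in RBE.

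**Figure D4:**
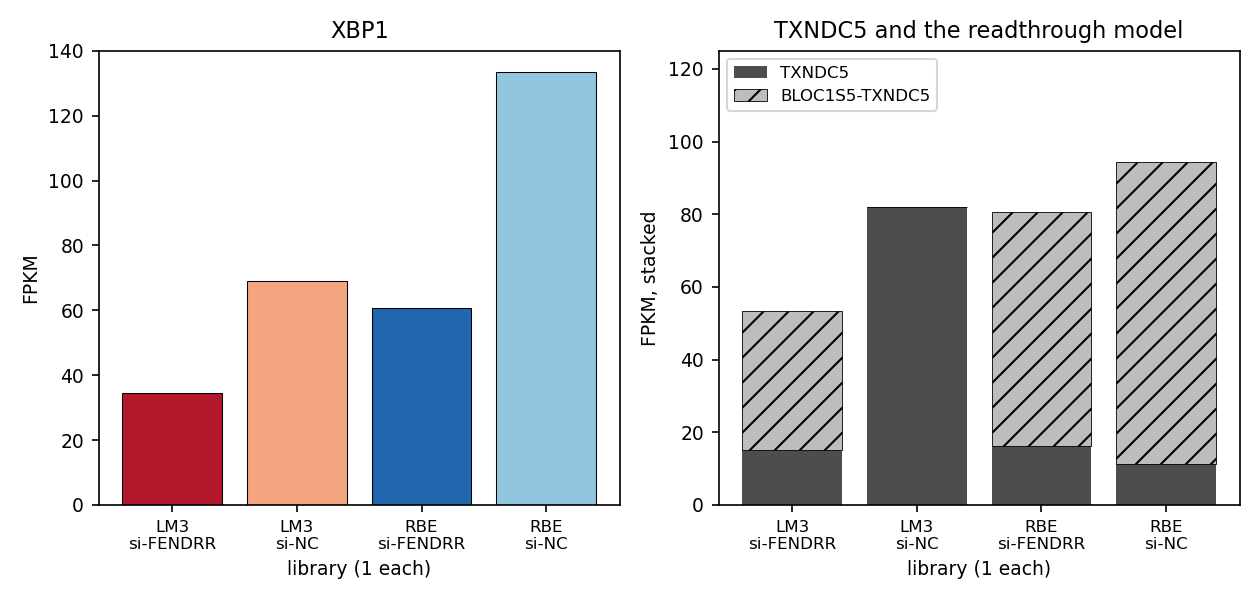
Left, FPKM of XBP1 in each library; right, FPKM of TXNDC5 (dark) with the readthrough model BLOC1S5-TXNDC5 (hatched) stacked on it. XBP1 is lower in the si-FENDRR library of each line, and the split between the 2 TXNDC5 models differs between the LM3 libraries, where the readthrough is listed at 0 with si-NC.

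The 4 members of ER-associated degradation, which returns misfolded proteins to the cytosol for the proteasome, lay near or above their si-NC level. Of 29 further genes of this process, described below, 14 lay below si-NC in both lines and 7 above it. HERPUD1, a scaffold of the degradation complex, was at 14.4 against 11.0 FPKM in LM3 cells and at 25.9 against 22.6 FPKM in RBE. Its log2 difference was 0.28 ± 0.12 (SE, n = 2 lines), with an adjusted p = 0.959 by limma. SEL1L, which holds the ubiquitin ligase in place, was at 10.6 and 9.43 FPKM in LM3 cells and at 14.9 and 14.2 in RBE. The ligase SYVN1 (HRD1) was at 29.3 and 24.7 FPKM in LM3 cells and at 14.9 and 15.9 in RBE. EDEM1, a mannosidase-like lectin and a known target of spliced XBP1, was at 9.23 and 10.3 FPKM in LM3 cells and at 5.30 and 4.98 in RBE. The 4 genes thus had 2 members, HERPUD1 and SEL1L, above si-NC in each line and 0 below it in each line.

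Of the translocation genes, SEC61A1 and SSR3 had the widest gaps between the transfections, and neither passed the test. SEC61A1, the pore of the translocation channel, was at 71.2 against 80.9 FPKM in LM3 cells and at 40.0 against 74.3 FPKM in RBE. Its log2 difference was -0.53 ± 0.20 (SE, n = 2 lines), with an unadjusted p = 0.0623. SSR3, a subunit of the translocon-associated complex TRAP, was at 32.2 against 48.2 FPKM in LM3 cells and at 38.0 against 26.9 FPKM in RBE, opposite in the 2 lines. SSR1, of the same complex, was at 10.3 and 8.76 FPKM in LM3 cells and at 9.18 and 8.80 in RBE. SEC24D, a cargo adaptor of COPII vesicles, was at 11.0 and 10.1 FPKM in LM3 cells and at 3.32 and 2.94 in RBE. WFS1 (wolframin), an ER membrane protein of calcium balance, was at 21.003 and 24.0 FPKM in LM3 cells and at 4.35 and 4.22 in RBE.

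The members whose promoter holds ERSE or ERSE-II had medians near 0 both with XBP1 (-0.06 in LM3 and -0.01 in RBE) and without it. Leaving XBP1 out, these 10 members had a median log2 difference between si-FENDRR and si-NC of -0.00 in LM3 and 0.01 in RBE, with 3 below si-NC in each line and 3 above it. The 22 other members with a promoter entry had medians of -0.01 and 0.03, with 5 below si-NC in each line and 5 above it. They are not free of elements, since SSR3, TXNDC11 and TXNDC5 among them hold UPRE. Whether spliced XBP1 differed is not read by these values.

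The second comparison asked how the lines differ. Of 35 members, 27 were called between LM3 and RBE at an adjusted p of 0.05 by limma, of which 16 were higher in LM3 and 11 in RBE. Of all tested genes 32.3% were called higher in LM3 and 26.4% higher in RBE, against 45.7% and 31.4% of the members. The median log2 difference, LM3 minus RBE, was 0.47 over the members and 0.09 over all genes. In 26 of the 27 called members both libraries of 1 line lay above both of the other, as in 99.5% of all called genes, and XBP1 was the exception. With the line term alone, 24 members were called on all 4 libraries, 16 higher in LM3 and 8 in RBE, beside 9643 of 15930 tested genes. Leaving out 1 library leaves 1 library in a line, and fewer members and fewer genes were then called. Without either RBE library, the share of members called was close to that of all tested genes. The direction of each called member was kept with any 1 library left out. The 11 members with ERSE or ERSE-II had a median log2 difference of -0.47, with 4 called higher in LM3 and 6 in RBE. The 22 other members with a promoter entry, SSR3, TXNDC11 and TXNDC5 with UPRE among them, had one of 0.60, with 11 and 4. The 2 groups were not tested against each other.

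By role, 3 of 6 sensors and factors were called higher in LM3 and 3 in RBE. The counts were 5 and 2 of 9 chaperones and co-factors, 4 and 3 of 8 isomerases and oxidases, and 2 and 2 of 4 degradation genes. They were 1 and 0 of 5 translocation and export genes and 0 and 1 of 2 lectin chaperones, and WFS1 was called higher in LM3. Of all tested genes 32.3% were called higher in LM3 and 26.4% higher in RBE. Some related genes differed in opposite directions, such as ATF6 and ATF6B. ATF6 was higher in RBE, at 13.4 and 13.1 FPKM against 5.62 and 5.19 in LM3 (log2 difference -1.16 ± 0.12 SE, adjusted p = 0.0042 by limma). ATF6B was higher in LM3, at 31.4 and 29.9 FPKM against 17.7 and 16.9 (0.79 ± 0.11 SE, adjusted p = 0.00809). ERO1A was higher in LM3 (0.88 ± 0.12 SE, adjusted p = 0.00738 by limma) and its paralog ERO1B higher in RBE, at 2.66 and 3.14 FPKM against 0.431 and 0.371 in LM3 (-1.48 ± 0.15 SE, adjusted p = 0.00425). The isomerases also parted: P4HB was 2.35 times, TXNDC11 1.56 times and PDIA4 1.52 times as high in LM3, while PDIA6 was 4.01 times and PDIA3 1.49 times as high in RBE. PDIA6, which is known to bind ERN1, had the smallest adjusted p of the members, 0.00136 by limma (-1.97 ± 0.11 SE, n = 2 libraries per line).

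**Figure D5:**
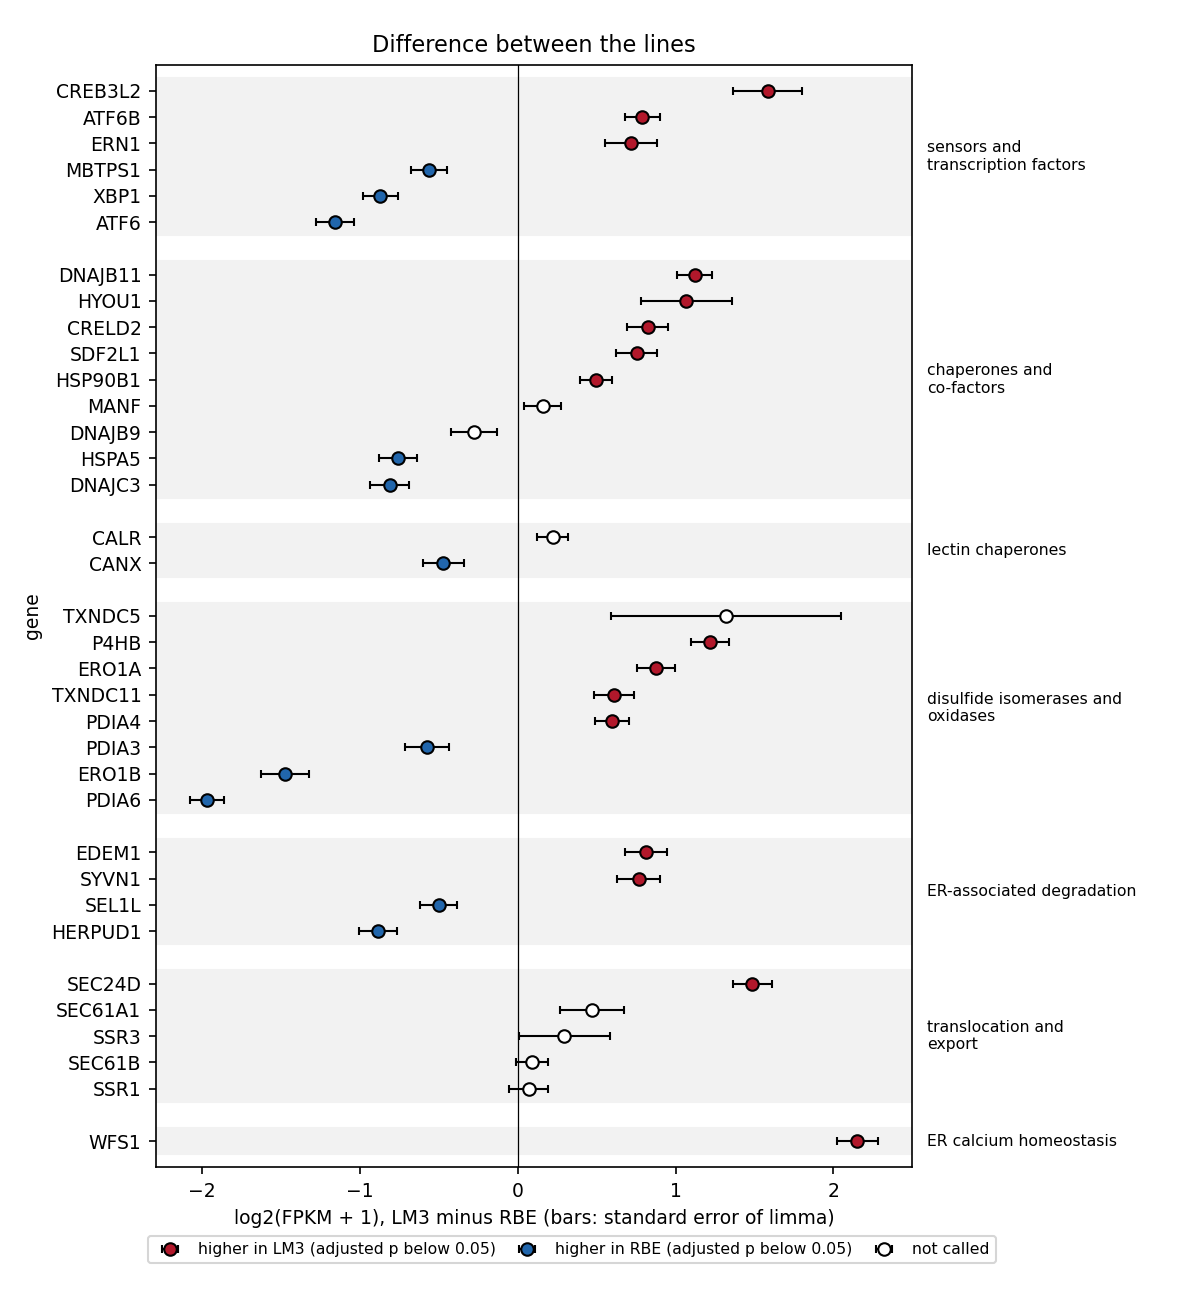
Difference of log2(FPKM + 1), LM3 minus RBE, for each member with the standard error of limma (bars; n = 2 libraries per line), grouped by role; red is called higher in LM3, blue higher in RBE and white not called. On this scale WFS1 lies farthest toward LM3 at 2.15 and PDIA6 farthest toward RBE at -1.97. As a ratio of mean FPKM the low gene ERO1B was farther toward RBE, at 7.24 times against 4.01 times for PDIA6.

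HSPA5 and HSP90B1, the main HSP70 and HSP90 of the lumen, differed in opposite directions. HSPA5 was 1.70 times as high in RBE (-0.76 ± 0.12 SE, adjusted p = 0.0107 by limma) and HSP90B1 was 1.41 times as high in LM3 (0.49 ± 0.10 SE, adjusted p = 0.0198). Of the factors that assist HSPA5, DNAJB11, HYOU1 and SDF2L1 were 2.25, 2.15 and 1.76 times as high in LM3, and DNAJC3 was 1.96 times as high in RBE. CRELD2 was 1.88 times as high in LM3 (adjusted p = 0.0110 by limma), and the lectin CALR was not called (adjusted p = 0.125). DNAJB9 and MANF were not called, with adjusted p-values of 0.178 and 0.306. XBP1 was 1.88 times as high in RBE (-0.87 ± 0.11 SE, adjusted p = 0.00638 by limma), and the call was lost at an adjusted p of 0.202 when the transfection term was left out. MBTPS1 was 1.51 times as high in RBE, and its call was lost at 0.133 under the same setting. ERN1 was 1.88 times as high in LM3 (adjusted p = 0.0269, and 0.0708 with no filter on low values).

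The degradation genes split 2 and 2, with SYVN1 and EDEM1 1.75 and 1.90 times as high in LM3, and HERPUD1 and SEL1L 1.90 and 1.46 times as high in RBE. SYVN1 and its partner SEL1L thus differed in opposite directions, though the call of SEL1L moved from 0.0278 to 0.0512 by limma with no filter on low values. That setting also ended the calls of HYOU1 (adjusted p = 0.0935), PDIA3 (0.0675) and CANX (0.0874), the last 1.38 times as high in RBE. CANX was lost as well with the transfection term left out (0.0662) and with 1 prior variance (0.0596). The translocation subunits SEC61B, SSR1, SSR3 and SEC61A1 were not called, with adjusted p-values from 0.120 to 0.653. SEC24D was 3.38 times and WFS1 5.26 times as high in LM3, the latter the largest difference toward LM3 (2.15 ± 0.13 SE, adjusted p = 0.00164). CREB3L2 was 3.66 times as high in LM3 (1.58 ± 0.22 SE, adjusted p = 0.00769).

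The direction for TXNDC5 depends on the gene model. As listed it was 3.51 times as high in LM3 and not called (1.32 ± 0.73 SE, adjusted p = 0.191 by limma), and summed with the readthrough it was lower in LM3 (-0.39 ± 0.14 SE, adjusted p = 0.0790). Of the other members, SYVN1 shares exon bases with FAU, at 71.7 to 135 FPKM, ATF6B with TNXB, and DNAJB11 with AC068631.2 on the same strand, over 1.96% to 7.87% of their exon bases. Exons of 16 members overlap a gene on the opposite strand, over at most 25.2% of their exon bases; the strand setting of the libraries was not stated.

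The wider secretory pathway was read from 157 further genes in 6 lists, of which 154 were tested. None was called between the transfections, and 7 had an unadjusted p under 0.05 (4.55%, beside 4.12% of all genes). Between the lines 48 (31.2%) were called higher in LM3 and 44 (28.6%) higher in RBE, beside 32.3% and 26.4% of all tested genes. Among 14 tested stress transducers, the factors of the CREB3 family and their protease parted. CREB3L3, the liver-type member, was at 22.9 and 54.6 FPKM in LM3 (si-FENDRR first) and at 0.0458 and 0.0297 in RBE, and CREB3L1 at 14.0 and 11.4 and at 0.174 and 0.273 (adjusted p = 0.00184 and 0.00115 by limma). CREB3L4 was higher in RBE, at 16.3 and 17.4 FPKM over 9.76 and 11.6 (adjusted p = 0.0174). The site-2 protease MBTPS2 was likewise higher in RBE, at 7.36 and 7.53 FPKM over 3.39 and 3.84 (adjusted p = 0.00848). NFYC is a subunit of the factor that binds the CCAAT part of ERSE. It was also higher in RBE, at 25.4 and 22.1 FPKM over 13.9 and 8.16 (adjusted p = 0.0110). The subunits NFYA and NFYB were not called between the lines (adjusted p = 0.172 and 0.725 by limma).

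In the PERK and ATF4 arm, which lowers translation and induces stress genes, 4 of 12 genes were called higher in LM3 and 1 higher in RBE. These are 33.3% and 8.33%, beside 32.3% and 26.4% of all tested genes. ATF4 itself was the one higher in RBE, at 352 and 345 FPKM over 159 and 185 in LM3 (adjusted p = 0.00509 by limma). PPP1R15A (GADD34), which ends the arm, was at 133 and 118 FPKM in LM3 over 29.5 and 33.0 in RBE (adjusted p = 0.00195). CEBPB was at 75.9 and 95.8 FPKM over 19.0 and 18.7 (adjusted p = 0.00185). PERK itself (EIF2AK3) was counted with the stress transducers and is not among these 12 genes. It was called higher in LM3, at 5.87 and 5.88 FPKM over 2.91 and 3.12 in RBE (adjusted p = 0.0113 by limma). Between transfections, DDIT3 (CHOP) was at 106 with si-FENDRR and 88.1 FPKM under si-NC in LM3 cells, and at 45.7 and 31.5 in RBE cells (unadjusted p = 0.0340). ATF3 was at 42.7 and 29.8 FPKM in LM3 and opposite in RBE, at 28.9 and 32.3. TRIB3, a target of ATF4 and CHOP, was at 89.6 and 234 FPKM in LM3 but at 95.5 and 92.1 in RBE. CHAC1 was at 5.27 and 4.68 FPKM in LM3 cells and at 5.88 and 11.2 in RBE. These 4 are the genes of the list with the highest and lowest mean differences.

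Of 32 genes of translocation and N-glycosylation, 11 (34.4%) were called higher in LM3 and 12 (37.5%) in RBE, beside 32.3% and 26.4% of all tested genes. The largest line differences were those of MAGT1 and SRPRA toward LM3 and of SPCS2 and SEC61A2 toward RBE. MAGT1, an oligosaccharyltransferase subunit, was at 26.4 and 22.8 FPKM in LM3 over 6.74 and 6.18 (adjusted p = 0.00187 by limma), and SRPRA, of the signal recognition particle receptor, at 80.4 and 66.4 over 22.6 and 22.3 (adjusted p = 0.00238). SPCS2, of the signal peptidase, was at 26.7 and 40.4 FPKM in RBE over 14.4 and 13.7 (adjusted p = 0.0123), and SEC61A2, the paralog of the pore gene, at 8.76 and 11.7 over 4.02 and 4.14 (adjusted p = 0.00696). Between transfections, TUSC3, the paralog of MAGT1, was at 33.8 (si-FENDRR) and 46.5 FPKM (si-NC) in LM3 cells and at 15.1 and 27.4 in RBE (unadjusted p = 0.0124, adjusted p = 0.959 by limma). SPCS1 was at 19.5 and 23.5 FPKM in LM3 cells and at 25.3 and 38.7 in RBE. OST4 and SEC11A lay above si-NC in both lines, OST4 at 239.7 and 217 FPKM and at 219.9 and 144, and SEC11A at 57.3 and 54.4 and at 107 and 85.2.

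Of 30 COPII and ER export genes, 13 (43.3%) lay above si-NC in both lines and 4 (13.3%) below it. Of all tested genes 26.9% lay above it in both lines and 21.8% below it. The cargo receptor TMED2 was at 91.0 (si-FENDRR) and 44.9 FPKM (si-NC) in LM3 cells and at 94.5 and 62.0 in RBE (unadjusted p = 0.00582), and its partner TMED10 at 38.4 and 22.5 and at 36.2 and 34.5. TMED3 was below si-NC in both lines, at 46.1 and 59.0 FPKM and at 67.8 and 78.7. The COPII GTPase SAR1B was at 10.8 and 22.4 FPKM in LM3 cells and at 10.2 and 10.7 in RBE. KDELR2 and KDELR3, which return escaped chaperones to the ER, were higher in LM3: KDELR2 was at 121 and 117 FPKM over 50.6 and 56.1, and KDELR3 at 24.8 and 24.9 over 8.52 and 9.49 (adjusted p = 0.0039 and 0.00303 by limma). ERGIC1 and the COPII coat gene SEC23B were higher in RBE, ERGIC1 at 113 and 116 FPKM over 52.3 and 51.0 and SEC23B at 43.0 and 41.7 over 25.3 and 23.1 (adjusted p = 0.00339 and 0.00813).

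Of 29 tested further genes of ER-associated degradation, 14 (48.3%) lay below si-NC in both lines and 7 (24.1%) above it. Of all tested genes 21.8% lay below it in both lines and 26.9% above it. RNF185, a ubiquitin ligase of the ER membrane, was at 6.49 (si-FENDRR) and 19.1 FPKM (si-NC) in LM3 cells and at 3.07 and 3.68 in RBE, and SELENOS at 14.7 and 17.0 and at 15.6 and 28.5. EDEM3 was at 5.72 and 1.87 FPKM in LM3 cells and at 2.30 and 2.35 in RBE, and JKAMP at 17.7 and 10.4 and at 13.1 and 10.5 (unadjusted p = 0.0336). RNF185 and its close relative RNF5 differed between the lines in opposite directions: RNF185 was higher in LM3 (adjusted p = 0.0246 by limma) and RNF5 higher in RBE, at 66.7 and 74.7 FPKM over 23.8 and 24.9 (adjusted p = 0.00223). UBAC2 was higher in RBE as well, at 31.6 and 52.1 FPKM over 15.2 and 15.3 (adjusted p = 0.00985), and NGLY1 higher in LM3, at 16.4 and 13.3 over 7.82 and 7.498 (adjusted p = 0.00951).

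Of 37 tested further folding genes, 31 (83.8%) lay within 1.25-fold of si-NC in both lines, beside 64.5% of all tested genes. Between the lines 14 (37.8%) were called higher in LM3 and 10 (27.0%) in RBE, beside 32.3% and 26.4% of all tested genes. CNPY3 was higher in RBE, at 70.8 and 78.8 FPKM over 26.1 and 26.3, and its relative CNPY4 higher in LM3, at 13.8 and 17.1 over 4.89 and 5.64 (adjusted p = 0.00241 and 0.00306 by limma). PDIA2, an isomerase, was at 2.61 and 2.92 FPKM in LM3 and listed at 0 in RBE, and TMX2 was higher in RBE, at 103 and 123 FPKM over 59.9 and 39.6 (adjusted p = 0.0184). Between transfections, TXNDC12 was at 23.0 (si-FENDRR) and 38.1 FPKM (si-NC) in LM3 cells and at 18.4 and 19.1 in RBE, and SERP1 at 44.1 and 48.3 and at 20.4 and 27.7. DNAJC25 was at 5.17 and 3.24 FPKM in LM3 cells and at 2.01 and 1.62 in RBE, and CNPY2 at 93.3 and 74.8 and at 60.1 and 53.5. None of these 4 had an unadjusted p under 0.05.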

How the data were processed

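Gene expression was measured by mRNA sequencing in 4 libraries, 1 per line (LM3, RBE) and transfection (si-FENDRR, si-NC). The deposited values are FPKM per gene, per the file headers. Per the submitters' processing notes, FastQC, HISAT2 and the build hg38 were used. Neither the program that estimated FPKM nor its annotation is given in the sources used here. No read counts are given: at the best step per library, 10.4% to 15.5% of low values of single-exon genes, multiplied by length, lay within 0.02 of whole multiples, so reads were not recovered.

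The deposited FPKM went into limma 3.58.1 (R 4.3.3) on the log2(FPKM + 1) scale, prior variance trended, for the 15930 genes that reach an FPKM of 1 in some library, with terms for line and transfection and 1 residual degree of freedom. P-values were adjusted over all these genes by Benjamini-Hochberg (threshold 0.05), and the test was checked on simulated data. Differences on this scale understate those of low genes. Fold counts use FPKM + 1; ratios of FPKM are printed without it. Overlaps and XBP1 transcripts come from GENCODE release 29 (GRCh38), promoters from RefSeq (GRCh38.p14).

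All members were described. From each of 6 further lists the 2 genes with the highest and the 2 with the lowest mean transfection difference are named. So are the 2 called with the largest line difference in each direction. Readthrough models, pseudogenes by symbol and same-strand overlaps are named at an FPKM of at least 1. CREB3L4, NFYA, NFYB and EIF2AK3 are named outside this rule. Members and lists were chosen with earlier results of these data known. Alternatives covered the pseudocount, filter, scaling, model, prior and libraries left out; the summed TXNDC5 was chosen after seeing the data.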

Additional observations from a re-analysis of the deposited data

Results flagged for a closer look

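Of the 35 members, 3 differed between si-FENDRR and si-NC in opposite directions in the 2 lines by at least 1.25-fold in each, as did 3.22% of all tested genes. With 1 library per line and transfection, the difference between the lines was not tested. HYOU1 had a log2 difference, si-FENDRR minus si-NC, of -0.48 in LM3 and 0.57 in RBE. TXNDC5 had -2.36 in LM3 and 0.48 in RBE, and the sum of TXNDC5 and its readthrough model had -0.61 and -0.23, the same direction in both. SSR3 had -0.57 in LM3 and 0.48 in RBE. No group held enough libraries to look for outlying samples.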

How the results depend on the processing

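No gene was called between the transfections under any alternative, though those without the line term carry the line difference in their residual. Between the lines, 20 of the 27 member calls held in each alternative on all 4 libraries in which the gene was tested (ERO1B was not tested at an FPKM of at least 5), and the directions of the called members were the same throughout. Single members reversed in 3 cases, each with a value near 0 under median-of-ratios scaling: ERN1 between transfections (-0.00956, from 0.02), and SEC61B (-0.00629, from 0.09) and SSR1 (-0.0170, from 0.07) between lines. The sum of TXNDC5 with its readthrough model reversed its line difference, to -0.39. With 1 library left out and the term of the comparison alone, which leaves 1 residual degree of freedom and fewer samples, 12 to 22 members were called between the lines, 7 to 14 higher in LM3 and 5 to 8 higher in RBE, of 5573 to 6980 genes; no gene was called between the transfections. Members at least 2-fold apart numbered 1 in each line, TXNDC5 in LM3 and XBP1 in RBE; in LM3 there were 2 with library totals or median-of-ratios scaling and 3 at 1.5-fold, and in RBE 2 at 1.5-fold. Of all tested genes 2.13% were at least 2-fold apart in LM3 and 1.75% in RBE. ERSE matched 15 members with 1 mismatch allowed, in place of 8. Of the called genes 55.1% were higher in LM3, and 50.1% with median-of-ratios scaling. The labels number no replicates, and the line term pairs the transfections within a line. Without it no gene was called between them either, but the line difference then enters the residual. For XBP1 the standard error of the transfection difference was then 0.518 in place of 0.110, so the lack of calls adds no evidence. FPKM without read counts and 1 library per group limit the precision of every value.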
